A study of Danio rerio with 4 samples.

Results

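RNA recovered with a tagged helicase from whole zebrafish embryos was set against the RNA of whole wild-type embryos. The 2 libraries were the RNA immunoprecipitation (RIP-seq) library labelled wild type and the wild-type RNA-seq library, 2 of 4 libraries in all, taken by their assay and genotype label. Both came from embryos at 24 h post fertilisation, the time at which trunk muscle, lens, embryonic blood and pigment cells differentiate. The RNA-seq library came from wild-type embryos with no treatment given. For RIP-seq, the protocol text described mRNA for Flag-tagged ddx39a injected at the 1-cell stage into ddx39a mutant embryos and recovery from lysate on anti-Flag beads. The same text stood with both RIP-seq libraries, although 1 carried the genotype label wild type and the other the label ddx39a mutant. The library used here is therefore named by its label, and neither RIP-seq library is taken as a mock or control precipitation. Which ddx39a allele was used, how many embryos were pooled and how much tagged protein was made are not given in the labels. Injected mRNA is passed on to the cells of the early embryo and is not driven by a tissue's own promoter. There was 1 library per group, so no replicate check exists and each comparison is between libraries, not between conditions.

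DDX39A belongs to the DEAD-box family, proteins that use ATP to open RNA duplexes or to move proteins off RNA. With its close relative DDX39B (UAP56), it is known for loading onto messenger RNA during splicing and for handing the messenger to export adaptors such as ALYREF within the TREX complex. RIP-seq reads the RNA that stays with such a protein through lysis and washing. RNAs that never meet the nuclear export machinery, such as those made inside mitochondria, serve as a useful contrast in such an experiment. Histone messengers of dividing cells end in a stem-loop and lack a poly(A) tail, whereas replacement histone messengers are polyadenylated. Ribosomal, spliceosomal and nucleolar RNAs also lack poly(A) tails. The protocol gave oligo(dT) enrichment for every library, so RNA-seq counts of RNAs without a tail do not give their level in the embryo.

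The RNA-seq library held 9922182 counts in genes and the RIP-seq library 1966053. In RIP-seq, alignments to more than 1 place made up 91.8% of the records, against 11.2% in RNA-seq, and these are outside the gene counts. At least 10 counts were reached by 18207 genes in RNA-seq and by 7703 in RIP-seq, so precision in the comparison was set by RIP-seq. Markers of 9 embryonic cell types were looked up as a check of the source. Of 39 marker genes, 37 had RNA-seq counts and 32 had RIP-seq counts. Counts were scaled by TMM, which trims the features with extreme ratios. After it, 1 RIP-seq count stood for 17.97 RNA-seq counts, whereas the plain totals differed 5.05-fold.

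**Figure D1:**
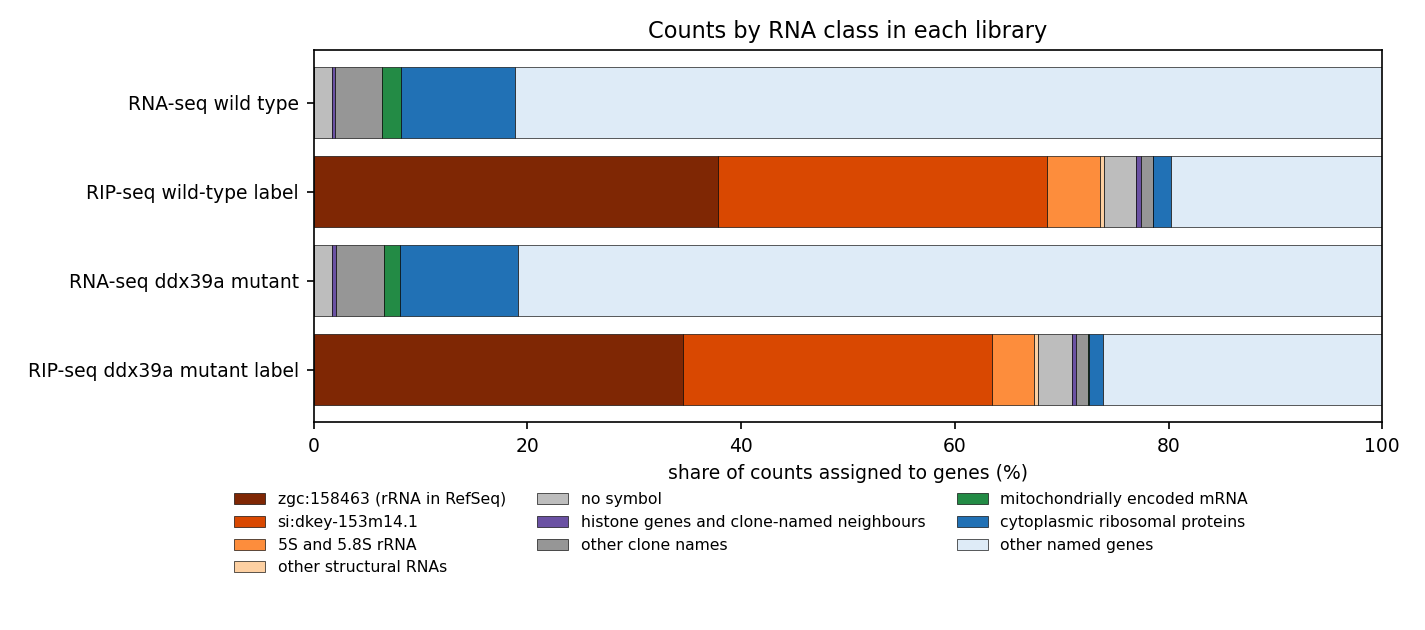
Share of counts assigned to genes, in percent, for each of the 4 libraries, split by RNA class from the features that lead RIP-seq to the other named genes. In RIP-seq with the wild-type label, zgc:158463, si:dkey-153m14.1 and the 5S and 5.8S rRNA genes fill most of the bar, and other named genes hold 19.8% against 81.1% in wild-type RNA-seq.

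RIP-seq gene counts were dominated by ribosomal RNA and by features without a descriptive name. Named genes outside the special classes held 19.8% of RIP-seq gene counts (95% exact binomial interval 19.7 to 19.9%) and 81.1% of RNA-seq gene counts. The feature zgc:158463 had 743254 counts in RIP-seq and 267 in RNA-seq. RefSeq lists it as a ribosomal RNA, among a run of ribosomal RNA genes (assembly GRCz12tu, used for names and neighbours only). The feature si:dkey-153m14.1 had 606960 counts in RIP-seq and 98 in RNA-seq, and RefSeq holds no entry under that name. Genes named as 5S or 5.8S ribosomal RNA took 4.96% of RIP-seq gene counts and 0.00114% of RNA-seq gene counts. The next 2 features had no symbol, ENSDARG00000080337 with 19907 against 3970 counts and ENSDARG00000082753 with 17769 against 917. The first named messenger was that of the skin keratin krt4, at rank 6 in RIP-seq with 10588 counts and at rank 1 in RNA-seq with 127338. Its scaled ratio was 1.49-fold (1.46 to 1.52), and the elongation factor messenger eef1a1l1, at rank 2 in RNA-seq with 115891 counts, had 5007 in RIP-seq. The plot of counts by RNA class shows the same split in the pair of libraries labelled mutant. Mitochondrially encoded messengers held 0.0570% of RIP-seq gene counts and 1.72% of RNA-seq gene counts, and cytoplasmic ribosomal protein messengers 1.63% and 10.7%.

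A gene entered the comparison when its scaled CPM (counts scaled to the library size, the usual measure of relative abundance) reached 1 in either library, which left 17412 genes. A gene was called when its ratio was at least 2-fold and the 95% exact conditional binomial interval of the ratio excluded equality. Intervals cover counting error only. By this rule 1568 genes (9.01%) were higher in RIP-seq and 2450 (14.1%) were lower. The split depends on the scaling: it was 2006 higher and 1934 lower with upper-quartile factors, 2296 and 1660 with totals taken without the 20 leading RIP-seq features, and 310 and 13429 with plain totals. The last setting moves every log2 ratio by -1.83, the others by 0.26 or less. A lower call at 0 RIP-seq counts needed at least 69 RNA-seq counts, and 12129 genes had them, of which 20.2% were lower. A higher call at 0 RNA-seq counts needed only 2 RIP-seq counts. Of the higher genes, 566 had an RNA-seq CPM under 1 and passed the filter through RIP-seq alone, so their ratios had to lie above 1. In all, 1006 genes passed in this way, of which 56.3% were called higher and none was called lower. Among the 16406 genes with an RNA-seq CPM of at least 1, 6.11% were higher.

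**Figure D2:**
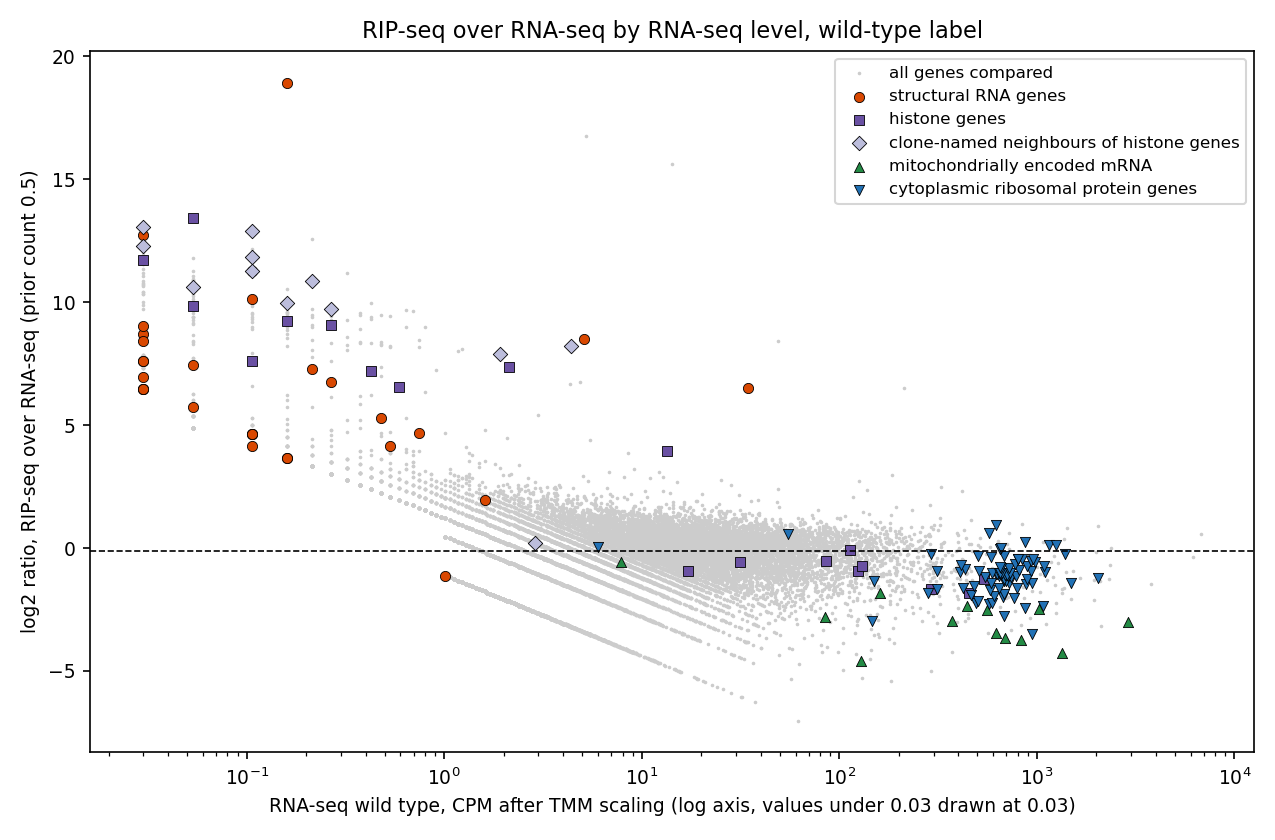
Log2 ratio of RIP-seq over RNA-seq (vertical axis) against the RNA-seq CPM (horizontal log axis) for the 17412 genes compared, with the dashed line at their median of -0.13. Structural RNA genes, most histone genes and the clone-named neighbours of histone genes lie at the upper left, and mitochondrially encoded messengers and ribosomal protein messengers lie below the median at the right.

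Across genes, RIP-seq and RNA-seq counts went together, with a Spearman rho of 0.78 over 10888 genes at an RNA-seq CPM of at least 5. This is a description across genes, which share both libraries and are not independent replicates. The most abundant messengers were the most often lower. Of 46 genes at an RNA-seq CPM of at least 1000, 56.5% were lower and none was higher, with a median log2 ratio of -1.19. From 100 to 1000 CPM, 34.8% of 791 genes were lower and 2.65% higher. From 20 to 100 CPM, 21.5% of 3882 genes were lower and 2.96% higher. Median log2 ratios were -0.18 from 5 to 20 CPM, -0.21 from 20 to 100 and -0.53 from 100 to 1000. Over the 10888 genes, the log2 ratio had a Spearman rho of only -0.06 with RNA-seq CPM. The shift in the median thus lay in the top bins and was no general trend with level. The ribosomal protein genes sit mostly in the upper bins, as the plot of ratio by level shows. The power to call a lower gene also rises with its counts.

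The RNA classes without poly(A) tails had the highest medians of the lists described. Every spliceosomal, signal recognition, RNase P, RNase MRP, 7SK and small nucleolar RNA gene that could be compared was higher in RIP-seq, 26 of 26. That count is no support, because 23 of the 26 passed the filter through RIP-seq only, and most genes of these classes had no RIP-seq count. Of 111 spliceosomal RNA genes in the table, 4 were compared, and 5 had any RIP-seq count. Of 58 small nucleolar RNA genes 12 were compared, and of 31 genes of the 7SK, SRP and RNase P group 10 were. The 3 that reached the filter in RNA-seq as well were rn7sk, rn7sl1 and a SNORA73 gene (ENSDARG00000082242).

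Single members had large counts. The gene rn7sl1, the RNA of the signal recognition particle that brings ribosomes to the endoplasmic reticulum, had 3249 RIP-seq counts against 644 in RNA-seq and was 90.7-fold higher (83.3 to 98.8). The gene rmrp, whose RNA guides the RNase MRP that cuts ribosomal precursor RNA, had 347 against 2 counts and was 3118-fold higher (857 to 25847). The RNase P RNA gene rpph1, of the enzyme that trims transfer RNA precursors, had 154 against 2 counts and was 1384-fold higher (377 to 11528). U4, which pairs with U6 in the spliceosome, had 11 against 0 counts, at least 65.9-fold higher against a floor of 3 counts per library. SNORD97, a guide of RNA methylation, had 14 against 1 count and was 252-fold higher (38.3 to 10638). Most of these values rest on few RNA-seq counts from a poly(A)-selected library, so they compare the libraries and not recovery over the level in the embryo. The protocol gave the same oligo(dT) enrichment for RIP-seq, and whether it acted alike in both libraries was not tested. Relative to the median of all genes, the log2 medians were 7.03 for the 7SK, SRP and RNase P group and 5.65 for small nucleolar RNAs. With members at 0 counts set to the floor they were 6.14 and 4.84. MicroRNA genes could not serve as a contrast. Of 269 such genes, 4 were compared, and only mir210, with 2 counts against 0, was called higher. It passed the filter through RIP-seq alone and had to have a ratio above 1. The others compared had 0 RIP-seq counts against 26 to 31 RNA-seq counts, too few for a lower call.

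Almost all counts of the small ribosomal RNA class came from a single gene. Of 676 genes named 5S or 5.8S rRNA, 4 were compared and 3 were higher, beside 9.01% of all genes compared. All 3 had an RNA-seq CPM under 1 and passed the filter through RIP-seq alone, so their count is no support. The other had 0 against 19 counts, too few for a lower call. One gene named 5_8S_rRNA (ENSDARG00000081218) held 97454 of the 97471 RIP-seq counts of the class. Near-identical copies share reads, and reads that align to several copies were not in the gene counts, so the counts of such genes come from their unique stretches.

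Histone genes fell on both sides. Of 22 histone genes in the list, 19 were compared, 10 were higher and 3 were lower. The higher group held the 5 named hist1h2a genes, the H3 genes hist2h3c and h3c13a, h1l1 and 2 h2ax genes. The lower group held 3 genes of the replacement histone H3.3, whose messengers carry poly(A) tails. The linker histone gene h1l1 had 931 counts in RIP-seq and 1 in RNA-seq. The H3 gene hist2h3c had 368 against 40 counts, a ratio of 165-fold (119 to 235). The H2A genes hist1h2a2, hist1h2a3, hist1h2a4, hist1h2a7 and hist1h2a11 had 27 to 116 RIP-seq counts against 0 to 8 in RNA-seq. The gene h2ax had enough RNA-seq counts to be compared from both sides, with 215 against 251, and was 15.4-fold higher (12.8 to 18.5). In the other direction, h3f3a had 232 counts in RIP-seq against 10111 in RNA-seq, 2.43-fold lower (2.13 to 2.77). H3-3B had 94 against 5438 (3.22-fold lower, 2.63 to 3.99) and h3f3d had 133 against 8515 (3.56-fold lower, 3.0 to 4.26). Genes not called included h2ax1, H1-10, H2AZ2, hist2h2l and h3f3b.1, which stood between 1.05-fold and 1.98-fold on the lower side.

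**Figure D3:**
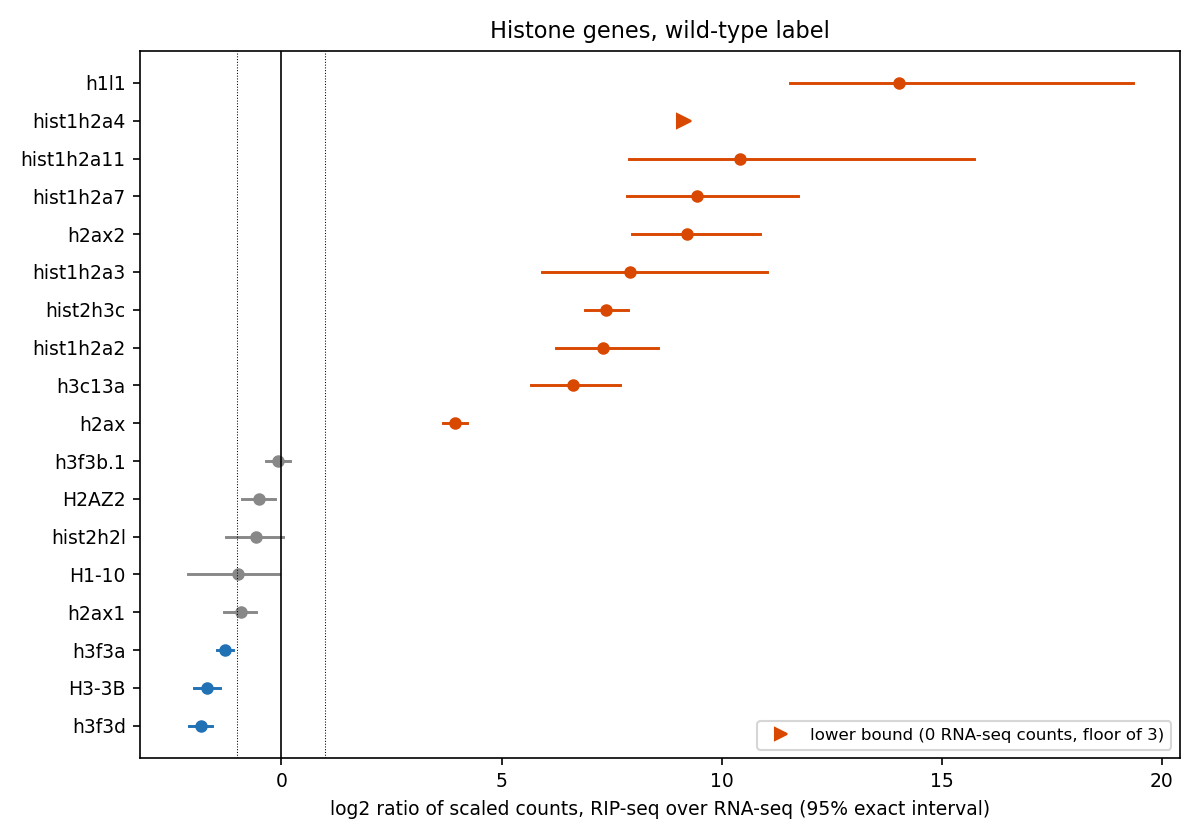
Log2 ratio of scaled counts, RIP-seq over RNA-seq, with 95% exact intervals (lines) for 18 of the 19 histone genes compared, orange where called higher, blue where called lower and grey where not called, with dotted lines at 2-fold and a triangle for a lower bound. The 10 higher genes begin at h2ax with 15.4-fold, and the other 8 drawn sit between 1.05-fold and 3.56-fold lower.

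The list median lay 4.08 log2 units above that of all genes, but it passes between the groups and says little. Of the 10 higher genes, 8 had an RNA-seq CPM under 1, and with an RNA-seq CPM of at least 20 required the list median turned to -0.57. In RefSeq's gene order, 14 genes with only a clone name lie within 5 genes of the hist1h2a genes and h1l1, a look-up made after the values were seen. Of these 12 were compared and 11 were higher, with 5199 RIP-seq counts against 191 RNA-seq counts in all. Of the 11, 9 had an RNA-seq CPM under 1 and passed the filter through RIP-seq alone, so their count is no support. The largest were zgc:110216 with 1366 against 82 counts, 299-fold higher (239 to 379), and si:ch211-113a14.18 with 1075 against 2. RefSeq names 1 of them, si:ch1073-153i20.6, hist1h2a6. The named gene ano9a, for a membrane protein of the anoctamin family, was also 279-fold higher (183 to 446), with 357 against 23 counts. It lies beside hist1h2a5 in the same order. Whether its counts come from its own messenger or from a neighbour was not tested, since the strand setting of the counting is not given in the sources used here.

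Features without a descriptive symbol made up most of the extreme ratios. In 147 genes the whole interval lay at or above 100-fold, and 102 of these had no symbol, 32 had a clone name and 13 had another symbol. Of the 1040 compared genes without a symbol 284 were higher and 74 lower. Of the 1848 with a clone name 208 were higher and 225 lower, and of the 14524 others 1076 were higher and 2151 lower. Over all genes compared 9.01% were higher and 14.1% lower. Genes that passed the filter through RIP-seq alone had to be higher, and they were not taken out of any of these counts. No name is given here to features that the files and tables do not name.

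Messengers of ribosome assembly included some of the highest ratios among named genes. This list was added after the values were seen and is given as a description. Of 73 nucleolar and ribosome biogenesis genes compared, 17 were higher and 5 lower, with a median 0.55 log2 units above that of all genes. Over all genes compared 9.01% were higher and 14.1% lower. Of the higher ones 5 had passed the filter through RIP-seq alone. The 5 members with the highest ratios had few RNA-seq counts: rrp1 had 327 against 22 counts (267-fold, 173 to 432), RRP12 148 against 17 (156-fold, 94.5 to 276), rrp7a 21 against 5, RRP9 24 against 7 and RRP15 27 against 12. These genes are named for ribosomal RNA processing factors. Of them RRP12, rrp7a, RRP9 and RRP15 had an RNA-seq CPM under 1. They passed the filter through RIP-seq alone and had to have a ratio above 1, so their ratios are no support. Among well-counted members, the pseudouridine synthase gene DKC1 had 519 against 2185 counts and was 4.27-fold higher (3.87 to 4.70). NOP56, a core protein of box C/D small nucleolar particles, had 713 against 4361 and was 2.94-fold higher (2.71 to 3.18). POLR1F, of RNA polymerase I, had 98 against 239 counts. The most abundant member, nucleolin (ncl), had 1728 against 15796 counts and stood at 1.97-fold (1.87 to 2.07), just under the size rule. Lower members included GAR1, which binds box H/ACA RNAs with DKC1, at 36 against 2214 counts (3.42-fold lower, 2.46 to 4.90). EBNA1BP2 had 3 against 801 counts (14.9-fold lower, 5.07 to 72.2).

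Of 46 DEAD and DEAH helicase genes other than ddx39, 9 were higher and 1 was lower, with a median 0.39 log2 units above that of all genes. Among all genes compared 9.01% were higher and 14.1% lower. DDX21, which acts in ribosomal RNA transcription and processing, had 859 RIP-seq counts against 2352 and was 6.56-fold higher (6.06 to 7.10). DDX24 had 174 against 531 counts and was 5.89-fold higher (4.93 to 7.0). DDX6, a helicase of messenger decay and P-bodies, had 66 against 240 counts and was 4.94-fold higher (3.70 to 6.51). The other higher members were ddx43, DHX33, DDX31, DDX27, DHX30 and DDX55, and the lower one was DHX32 (ENSDARG00000079029, 4 against 253 counts). The abundant helicase messengers were not called: DDX5 had 421 against 6360 counts and stood at 1.19-fold (1.08 to 1.31), and ddx3xb had 317 against 7803 and stood at 1.37-fold on the lower side (1.22 to 1.54).

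The ddx39 genes gave values on both sides. The gene table carries the symbol DDX39A on 2 zebrafish genes. One, ENSDARG00000015111, had 318 RIP-seq counts against 3742 and stood at 1.53-fold (1.36 to 1.71), and the other, ENSDARG00000006225, had 191 against 2242 and stood at 1.53-fold (1.31 to 1.78). Neither passed the size rule. In the mutant RNA-seq library, at similar depth, the first had 706 counts and the second 2382. With the wild-type label, ddx39b had 7 against 677 counts and was 5.38-fold lower (2.60 to 13.4). The injected messenger can itself add to RIP-seq counts at these genes, and its part was not tested. Of 26 genes of the THO/TREX complex and messenger export, 1 was higher and 4 were lower, beside 9.01% and 14.1% of all genes compared. The 4 lower genes are near that share, and the list median lay 0.05 log2 units below that of all genes. The higher one was THOC5 with 71 against 546 counts (2.34-fold, 1.80 to 3.0). The export adaptor gene alyref had 203 against 5732 counts and stood at 1.57-fold on the lower side (1.37 to 1.82).

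Messengers of the immediate early response, which are made quickly after a stimulus and decay quickly, included several higher genes. Of 41 compared, 8 were higher and 2 lower, with a median 0.71 log2 units above that of all genes, and 3 had passed the filter through RIP-seq alone. The shares over all genes were 9.01% higher and 14.1% lower. The Myc-family gene mych had 180 against 471 counts and was 6.87-fold higher (5.75 to 8.17). A gene for the AP-1 protein JUNB (ENSDARG00000104773) had 42 against 166 counts and was 4.55-fold higher (3.16 to 6.41). FOSL1 had 8 against 10 counts, but it passed the filter through RIP-seq alone and had to have a ratio above 1. IER5 had 195 against 1365 counts and was 2.57-fold higher (2.2 to 2.98). The phosphatase gene DUSP1, at 20 against 749 counts, was 2.08-fold lower (1.34 to 3.43). The other lower gene, ZFP36L1 (ENSDARG00000021443), had 4 against 392 counts and was 5.45-fold lower (2.11 to 20.1). FOS, at 1 against 51 counts, and egr1, at 3 against 80, were not called. Not all of this list moved: MYCN stood at 1.51-fold and BTG1 at 1.08-fold. A list of genes with no or few introns, which shares JUN, JUNB, JUND, IER5, IER5L, ier2a and ier2b genes with it, had 6 higher and 9 lower of 45 and a median 0.02 log2 units below that of all genes. Its lower members included the neural transcription factor genes SOX11 (ENSDARG00000095743, 10 against 969 counts) and POU3F2 (12 against 840 counts).

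Genes for large nuclear proteins were mostly within 2-fold, as were most genes: over all compared, 9.01% were higher and 14.1% lower. Of 57 chromatin remodellers and cofactors, 5 were higher and 1 lower, with a median 0.55 log2 units above that of all genes. The remodeller ATPase gene SMARCA4 (ENSDARG00000077226) had 778 against 6051 counts and was 2.31-fold higher (2.14 to 2.49), and CHD7 had 609 against 5637 and stood at 1.94-fold (1.78 to 2.11). Of 27 KMT2, SETD and COMPASS genes, which serve histone H3 methylation, 3 were higher and 2 lower. KMT2D had 151 against 1157 counts (2.35-fold higher, 1.97 to 2.78) and KMT2C (ENSDARG00000079312) had 84 against 624 (2.42-fold higher, 1.90 to 3.04). Both lower members were psip1 genes. Of 217 zinc finger (znf) genes 34 were higher and 9 lower, and 16 had passed through RIP-seq alone. Among all genes with an RNA-seq CPM of at least 1, 6.11% were higher. ZNF106, with 154 against 1210 counts, was 2.29-fold higher (1.92 to 2.71).

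The list of giant cytoskeletal and muscle scaffold genes had 9 higher and 5 lower members of 70, with a median 0.37 log2 units above that of all genes. Over all genes compared the shares were 9.01% higher and 14.1% lower. The titin genes, for the protein spring of the sarcomere, had the highest counts of it. TTN (ENSDARG00000028213) had 2173 against 7846 counts, and TTN (ENSDARG00000000563) had 1921 against 6143. Other higher members were eppk1 (139 against 669 counts), obscnb (163 against 928) and UBR4 (241 against 1884). The ryanodine receptor gene RYR3, for a calcium release channel, had 2 against 922 counts and was 25.7-fold lower (7.08 to 212), and the filamin gene flna stood at 1.46-fold with 430 against 5288.

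Transcripts made inside mitochondria were the lowest list by median. All 13 were compared, 12 were lower and none was higher, beside 14.1% and 9.01% of all genes compared. The median lay 2.84 log2 units below that of all genes. MT-CO1, for a core subunit of cytochrome oxidase, had 375 RIP-seq counts against 53936 and was 8.0-fold lower (7.23 to 8.88). MT-CYB, for cytochrome b of complex III, had 64 against 15495 counts and was 13.5-fold lower (10.5 to 17.5). MT-ND3, of complex I, had 5 against 2415 and was 26.9-fold lower (11.5 to 82.9). MT-ND6, also of complex I, had 46 against 3006 counts and was 3.64-fold lower (2.72 to 4.98). The member not called, mt-atp8, had 5 against 147 counts and stood at 1.64-fold on the lower side (0.69 to 5.11).

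Nuclear messengers for the same respiratory complexes were also lower in many members. Of 82 compared, 44 were lower and 3 higher, beside 14.1% and 9.01% of all genes compared. The list median lay 0.90 log2 units below that of all genes. The ATP synthase gene atp5md had 5 against 1612 counts and was 17.9-fold lower (7.67 to 55.3), and NDUFB1, of complex I, had 0 against 390, at least 7.23-fold lower. In contrast ATP5F1B and ATP5F1A, for large subunits of ATP synthase, were not called. ATP5F1B had 452 against 8837 counts (1.09-fold on the lower side, 0.99 to 1.2) and ATP5F1A had 314 against 7883 (1.4-fold, 1.25 to 1.57). Of the 3 higher members, ndufa9b and UQCRB had 2 RIP-seq counts each, and NDUFA10 had 81 against 611.

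Of 81 cytoplasmic ribosomal protein messengers none was called higher. Of them 46 were lower, with a median 0.93 log2 units below that of all genes. Beside this, 14.1% of all genes compared were lower, and 34.8% of those at an RNA-seq CPM of 100 to 1000. RPS29, of the small subunit, had 87 RIP-seq counts against 17595 and was 11.3-fold lower (9.12 to 14.1). RPS2 had 914 against 38120 counts and was 2.32-fold lower (2.17 to 2.48). At the other end RPL19 stood at 1.94-fold on the higher side with 1252 against 11605 counts (1.83 to 2.06), and RPL4 stood at 1.08-fold with 1297 against 21548 (1.02 to 1.14). The intervals of RPS29 and RPL19 lay more than 10-fold apart. Mitochondrial ribosomal protein messengers were closer to the rest, with 13 lower and 1 higher of 73 and a median 0.27 log2 units below that of all genes. Their 13 lower calls are near the share over all genes.

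The proteasome, cell cycle and translation lists had medians from 0.15 log2 units below to 0.23 above that of all genes. Of 40 genes matched by proteasome symbols none was higher and 3 were lower, 1 of which, PSMC3IP (0 against 155 counts), matches by symbol only and encodes a meiotic recombination factor. The base ATPase gene PSMC3 stood at 1.46-fold with 172 against 2122 counts (1.24 to 1.70). Of 36 cell cycle and replication genes 1 was higher and 3 were lower, and PCNA, the sliding clamp of replication, stood at 1.34-fold with 611 against 8216 counts (1.23 to 1.45). Of 75 genes of translation factors and their regulators 3 were higher and 16 lower, and eef2b, for the ribosome translocase, stood at 1.01-fold with 2442 against 44221 counts (0.97 to 1.05). Lower calls are the more common ones among all genes too, at 20.2% of those with enough RNA-seq counts. Of 56 core spliceosome and LSM genes 19 (33.9%) were lower and 2 higher, with a median 0.32 log2 units below that of all genes. Examples were LSM5 at 2 against 591 counts (16.4-fold lower, 4.53 to 136) and SF3B2 at 275 against 1994 (2.48-fold higher, 2.18 to 2.81). Of 59 SR and hnRNP genes 14 were lower and 1 higher, with a median 0.58 log2 units below that of all genes. In 55 of them RNA-seq counts were enough for a lower call, so 25.5% of these were lower, near the share over all genes. The gene hnrnpa0l stood at 294 against 15851 counts (3.0-fold lower, 2.67 to 3.38). Of 47 Hox genes, which pattern the body axis, none was higher and 4 were lower, with a median 0.39 log2 units below that of all genes, and HOXB3 stood at 1.30-fold on the lower side (0.96 to 1.79).

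**Figure D4:**
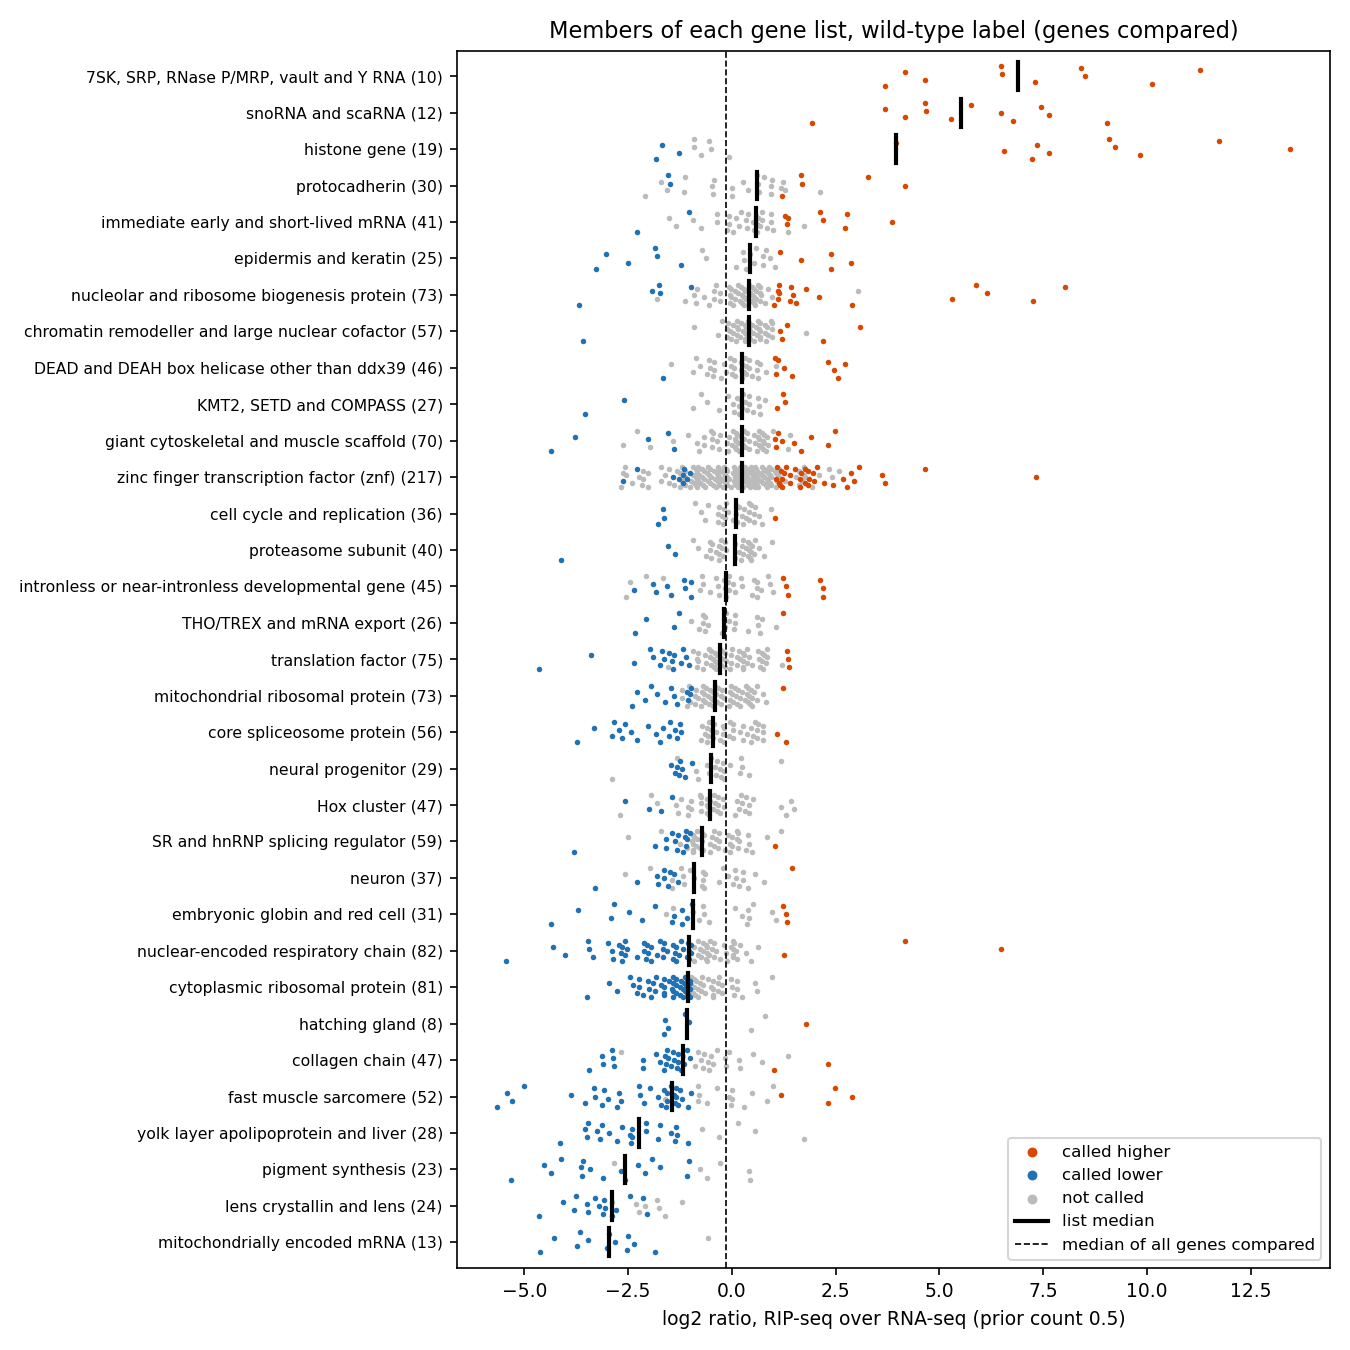
Log2 ratio of RIP-seq over RNA-seq for the compared members of each gene list with at least 8 of them, 1 point per gene (orange called higher, blue called lower, grey not called), with black bars at list medians and a dashed line at the median of all genes. Structural RNA and histone lists lie at the top, and the mitochondrial, lens, pigment, yolk and fast muscle lists at the bottom, with medians 1.30 to 2.84 log2 units below that of all genes.

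Most lists of differentiated tissues had medians below that of all genes, while the epidermal list lay 0.56 log2 units above it. Lower calls made up 14.1% of all genes compared, or 20.2% of those with enough RNA-seq counts for such a call. In whole embryos, fewer cells of a type and less RNA per cell cannot be told apart, and the RIP-seq protocol names mutant embryos while the RNA-seq library came from wild-type embryos. Of 52 fast muscle genes 34 were lower and 4 higher, with a median 1.30 log2 units below that of all genes. TNNT3 (ENSDARG00000068457), for a troponin of the thin filament, had 4 against 3436 counts, and the calcium buffer genes pvalb2 and pvalb1 had 9 against 5455 and 3 against 2451. The muscle actin gene actc1b had 1014 against 43589 counts and was 2.39-fold lower (2.25 to 2.55), and the myosin heavy chain gene myhz1.3 had 467 against 36490 and was 4.35-fold lower (3.97 to 4.77). The higher members were both titin genes, myhb and TNNI2 (ENSDARG00000005841). Of these myhb, with 3 against 8 counts, passed the filter through RIP-seq alone and had to have a ratio above 1. Of 24 lens genes 16 were lower and none higher, and these were all that had enough RNA-seq counts for such a call. In 13 of the 24 lens genes RIP-seq had no count. The median of the 24 lay 2.76 log2 units below that of all genes, or 1.76 below with these 13 set to the floor. CRYBB1, for a beta crystallin, had 2 against 627 counts (17.4-fold lower, 4.81 to 144). With the ddx39a mutant RNA-seq library as denominator the fast muscle median lay 0.41 and the lens median 1.37 log2 units below that of all genes. The size of both differences thus moved with the RNA-seq library used, and genotype and library cannot be told apart.

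The yolk and pigment lists lay lower with either reference, at 2.01 and 2.21 log2 units below all genes with mutant RNA-seq. Of 28 genes of yolk layer apolipoproteins and liver 23 were lower and none higher, with a median 2.1 log2 units below that of all genes. The most abundant, apobb.1, for the apolipoprotein B that carries yolk lipid, had 1429 against 70575 counts and was 2.75-fold lower (2.61 to 2.90). The small apolipoprotein genes apoc2 (8 against 2697 counts) and apom (0 against 1162, at least 21.6-fold lower) were the lowest of it. Of 23 pigment genes 17 were lower and none higher, with a median 2.43 log2 units below that of all genes, or 1.52 below with 5 members at 0 set to the floor. TYRP1 (ENSDARG00000056151), of melanin synthesis, had 1 against 1068 counts, and the purine synthesis gene PAICS had 152 against 5570 (2.04-fold lower, 1.74 to 2.41). Of 31 globin and red cell genes 13 were lower and 3 higher, beside 14.1% and 9.01% of all genes compared. The embryonic globin gene hbae3 had 178 against 7370 counts (2.30-fold lower, 1.99 to 2.69), and UROD, of heme synthesis, stood at 1.31-fold with 70 against 958 (1.02 to 1.67). The red cell median lay 0.80 log2 units below that of all genes, and 0.18 below with the mutant RNA-seq library as denominator. Near-identical globin, crystallin, keratin and myosin copies can share reads, so single copies are uncertain.

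Collagen genes were lower in 25 of 47 and higher in 2, with a median 1.03 log2 units below that of all genes. The fibrillar gene col1a1a had 131 against 17181 counts and was 7.30-fold lower (6.15 to 8.73), and the cartilage collagen gene COL2A1 (ENSDARG00000069093) had 260 against 11507 and was 2.46-fold lower (2.18 to 2.80). Of 8 hatching gland genes 5 were lower and 1 higher, and the hatching enzyme gene he1.1 had 221 against 8167 counts (2.06-fold lower, 1.80 to 2.36). Of 37 neuron genes 10 were lower and 1, the motor neuron factor ISL1 with 33 against 219 counts, was higher. The microtubule regulator STMN2 (ENSDARG00000033234) had 1 against 263 counts and the tubulin gene tubb2b stood at 1.13-fold with 830 against 13242. Of 29 neural progenitor genes 8 were lower and none higher. Beside these counts, 14.1% of all genes were lower, or 20.2% of those with enough RNA-seq counts, and 9.01% were higher. Epidermal genes went both ways, with 5 higher and 6 lower of 25 and a median 0.56 log2 units above that of all genes. The keratin genes krt8 (1069 against 8658 counts, 2.22-fold, 2.08 to 2.36) and krt92 (746 against 2572, 5.21-fold, 4.80 to 5.66) were higher, and the S100-type genes icn and icn2 were lower, icn2 with 15 against 2706 counts (10.04-fold, 6.08 to 18). Of 30 protocadherin genes, for neural adhesion proteins, 5 were higher and 2 lower, and PCDH7 had 41 against 233 counts (3.16-fold higher, 2.21 to 4.42).

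Gene families formed by shared symbol stems, an arrangement made after the values were seen, gave further groups. Of 105 stems with at least 15 compared genes, 11 had a median more than 0.5 log2 units below that of all genes and 10 a median more than 0.5 above. The lowest was the tetraspanin stem TSPAN, for membrane proteins with 4 spans, at -1.12 with 10 of 26 genes lower and 1 higher. The vesicle tethering stem TRAPPC lay at -1.08 with 7 of 15 lower. The stem RAB, of the small GTPases that steer vesicles, lay at -0.65 with 25 of 77 genes lower and 1 higher. Among all genes compared 14.1% were lower, or 20.2% of those with enough RNA-seq counts, and 9.01% were higher. On the upper side were KRT at 0.83, ZBTB at 0.72, the secreted signal stem WNT at 0.63, the deubiquitinase stem USP at 0.58 and the kinesin motor stem KIF at 0.53.

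The pair of libraries with the mutant label gave a comparison that shares no library with this one. There 17711 genes were compared, 13.8% were higher in RIP-seq and 16.2% were lower. Of the 1568 genes higher with the wild-type label, 1328 were compared under the mutant label. Of the 1568, 662 (42.2%) were higher with the mutant label as well, which is 27.1% of the 2441 called there, and 13 were lower. Among the 1568, 566 had passed the filter through RIP-seq alone and had to have a ratio above 1. They were not taken out of this overlap, so part of it can be set by the filter. Of the 2450 lower genes 1495 (61.0%) were lower in both, 52.0% of the 2875 called with the mutant label, and 30 were higher. The log2 ratios of the pairs had a Spearman rho of 0.63 over 10550 genes, as a description across genes. List medians lay close together for mitochondrial messengers (2.84 log2 units below all genes with the wild-type label, 2.29 below with the mutant label), pigment genes (2.43 and 2.15), yolk genes (2.1 and 1.69), ribosomal proteins (0.93 and 1.4) and respiratory chain genes (0.90 and 1.38). Histone genes had 10 higher members under each label, and 3 lower with the wild-type and 6 lower with the mutant label. Most of the 10 had passed the filter through RIP-seq alone and had to have a ratio above 1, so their count is no support. H1-10, not called under either label, stood at 1.98-fold on the lower side with the wild-type label and at 1.82-fold on the higher side with the mutant label.

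**Figure D5:**
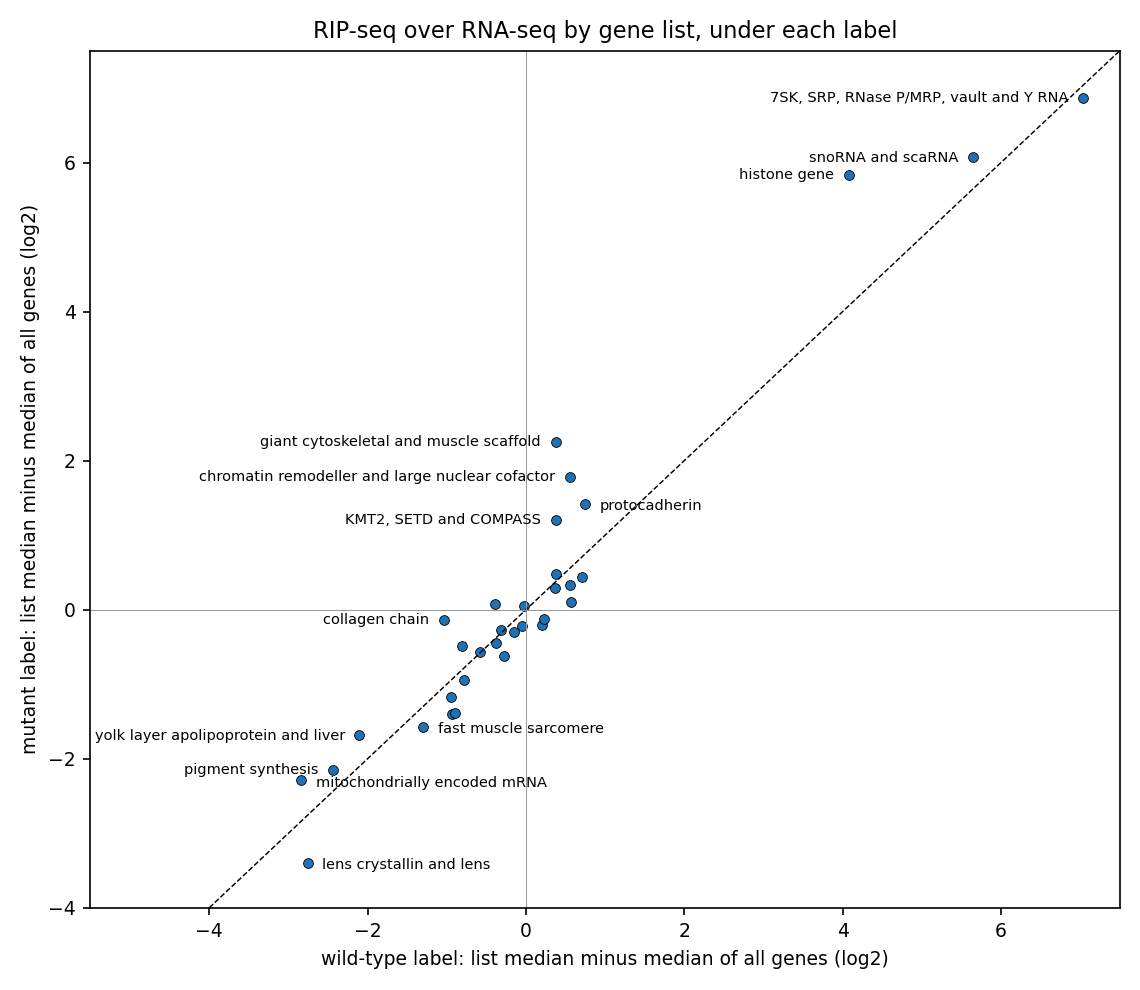
List median minus the median of all genes, in log2 units, under the wild-type label (horizontal axis) and the mutant label (vertical axis) for the lists with at least 8 compared members, with a dashed line at equality. Most lists lie near the line, and the giant scaffold (0.37 and 2.25), chromatin remodeller (0.55 and 1.78), KMT2 (0.38 and 1.2), protocadherin, histone and collagen (-1.03 and -0.14) lists lie above it.

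Genes for giant scaffold proteins and large nuclear proteins had higher ratios with the mutant label. The difference was read per gene as the ratio of the 2 ratios, called at 2-fold with a 95% log-scale Wald interval that excludes equality, and again covers counting error only. Over 16580 genes, the mutant-label ratio was higher in 7.55% and lower in 5.08%. Among giant scaffold genes it was higher in 56 of 70 and lower in none. Among chromatin remodellers it was higher in 31 of 55 and lower in none, among KMT2, SETD and COMPASS genes in 12 of 27 with 2 lower, and among collagen genes in 15 of 47 with 1 lower. KMT2D, 2.35-fold higher with the wild-type label, was 16.0-fold higher (14.9 to 17.2) with the mutant label. COL2A1, 2.46-fold lower with the wild-type label, stood at 1.08-fold on the lower side (0.98 to 1.2) with the mutant label. RYR3, 25.7-fold lower with the wild-type label, stood at 1.47-fold on the higher side (1.1 to 1.94). Nucleolar genes gave some differences of the other sign, with 7 of 73 ratios lower under the mutant label and 1 higher. DDX21 was 2.72-fold higher there (2.45 to 3.02), and DKC1 stood at 1.96-fold (1.77 to 2.18).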

How the data were processed

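RNA-seq and RIP-seq were given for whole embryos under each of 2 genotype labels, 1 library each, 4 in all. The deposited files hold raw counts per Ensembl gene, made by the authors, with 5 summary lines per file that were kept out of totals and ratios. The submitters' processing notes name HTSeq 0.6.1p1, Bowtie2 2.2.3, TopHat2 2.2.1, bcl2fastq and FastQC 0.11.5, and the zebrafish build GRCz10. For annotation release and strand, the setting is not given in the sources used here. Alignments to several places, which HTSeq sets aside, were 11.2% of records in wild-type and 8.42% in mutant RNA-seq, and 91.8% and 89.5% in RIP-seq with the wild-type and mutant labels. Of uniquely aligned records, 53.8%, 54.0%, 82.1% and 79.2% in the same order lay in no gene.

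Gene counts summed to 9922182 in wild-type RNA-seq, 9533101 in mutant RNA-seq, 1966053 in RIP-seq with the wild-type label and 2246938 in RIP-seq with the mutant label. Of 31953 gene IDs, 26121 had a symbol in the gene name table. Each RIP-seq library was scaled with its RNA-seq library by TMM (edgeR 4.0.16, R 4.3.3), and genes with a scaled CPM of at least 1 in either library were compared. The ratio of scaled counts has a 95% exact conditional binomial interval (scipy 1.17.1, Python 3.11.15). With 1 library per group there is no p-value, and the intervals cover counting error only. A fold against 0 counts is a bound against a floor of 3 counts per library, and medians use a prior of 0.5 counts. This bound leaves out the counting error of the other library, so the exact interval can begin below it. The computation was tested on simulated counts.

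The groups come from the genotype and assay labels. Members and gene lists were chosen with earlier results of these data known. Lists were matched on symbols and are described by counts and medians beside all genes compared. The genes named are the ddx39 genes, the 15 highest and 15 lowest genes of CPM 5 or more and a descriptive symbol, the 10 leading RIP-seq features and, per list, its 4 most abundant, 2 highest and 2 lowest members. From these a selection is printed, and any other gene was picked with its value in view. Other scalings (DESeq2 1.42.0 size factors, upper quartile, totals), filters, call rules and the mutant RNA-seq library as denominator were tried. No genome, transcript or protein sequence was used here, so no sequence is printed. Results for some genes are not reported here.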

Additional observations from a re-analysis of the deposited data

Results flagged for a closer look

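Some genes and lists named above had ratios that differed between the genotype labels. The difference was read from counting error in 1 library per group, so its part that comes from other variation between libraries was not tested. Values are the mutant-label ratio over the wild-type-label ratio, or the inverse where it was lower.

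Among named genes with the higher mutant-label ratio, the ryanodine receptor gene RYR3 differed 30.5-fold and the epiplakin gene eppk1 15.3-fold. The titin genes differed 11.2-fold (ENSDARG00000000563) and 8.35-fold (ENSDARG00000028213), obscnb 3.75-fold, UBR4 3.79-fold and flna 2.01-fold. The histone methyltransferase genes KMT2C and KMT2D differed 7.14-fold and 6.81-fold, and the remodeller gene CHD7 3.48-fold. The lipid carrier gene apobb.1 differed 4.37-fold, the collagen gene COL2A1 2.28-fold and the adhesion gene PCDH7 2.68-fold. Among lists, the ratio was higher under the mutant label in 56 of 70 giant scaffold genes, 31 of 55 chromatin remodellers, 12 of 27 KMT2, SETD and COMPASS genes, 15 of 47 collagen genes and 6 of 22 protocadherin genes, against 7.55% of all genes.

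Several histone genes and 2 other genes also had the higher ratio with the mutant label. The H2A genes h2ax and hist1h2a2 differed 3.37-fold and 3.74-fold, the H3 gene hist2h3c 3.26-fold, the linker histone gene H1-10 3.5-fold and the histone neighbour zgc:110216 2.35-fold. RIP-seq counts with the wild-type and mutant label were 215 and 248 for h2ax, 368 and 344 for hist2h3c and 1366 and 975 for zgc:110216. Their RNA-seq counts were 251 and 70, 40 and 9, and 82 and 20. For hist1h2a2 RIP-seq had 70 and 132 counts and RNA-seq 8 and 3. H1-10 had 9 and 20 in RIP-seq and 321 and 162 in RNA-seq. The mitochondrial gene mt-atp8 differed 4.84-fold on few counts. DDX39A (ENSDARG00000015111) differed 2.72-fold, with its RNA-seq count at 3742 in the wild type and 706 in the mutant.

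Some ribosome assembly genes had the lower ratio with the mutant label. They were RRP12 (3.85-fold), RRP9 (3.07-fold), rrp1 (2.32-fold), DKC1 (2.17-fold) and the helicase genes DHX33 (3.35-fold), DDX21 (2.41-fold) and DDX24 (2.36-fold). The RNase P RNA gene rpph1 was 15.9-fold lower (4.33 to 58.4), with 2 and 35 RNA-seq counts behind the value. The variant histone gene H2AZ2 was 2.33-fold lower, and the S100-type genes icn and icn2 2.06-fold and 4.48-fold lower.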

How the results depend on the processing

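The number of higher genes was 1568 and of lower genes 2450. With plain totals they were 310 and 13429, with a CPM of at least 20 in RNA-seq 136 and 1135, with a 4-fold rule 758 and 1223, and with the whole interval beyond 2-fold 590 and 724. The stricter rules and the filter call fewer genes by construction. The other scalings, filters and the mutant RNA-seq denominator kept both counts within 1.5 times. Of calls, 39% were higher, against 2.26% with plain totals, 50.9% with upper-quartile factors, 58.0% without the 20 leading RIP-seq features and 10.7% with the RNA-seq filter. With TMM over named messengers, an alternative chosen after seeing the data, the counts were 1674 and 2281.

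Lists with a median at least 1 log2 unit above all genes numbered 3. There were 6 without a filter, 1 with a CPM of at least 5 and 0 with a CPM of at least 20 in RNA-seq. Of the list medians recomputed, 338 moved by up to 1.5-fold and 15 by more, besides the one next given. The histone median turned to -0.57 with the RNA-seq filter, from 4.08, and the mitochondrial ribosomal protein median, not far from 0, went to 0.47. The lens median lay 0.92 below all genes without a filter.

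Plain totals turned 20 of the named higher genes to the lower side on the log2 scale: DDX27 (-0.72), DDX31 (-0.57), DDX55 (-0.79), DHX30 (-0.77), DHX33 (-0.38), IER5 (-0.47), ISL1 (-0.38), KMT2C (-0.55), KMT2D (-0.60), NDUFA10 (-0.57), NOP56 (-0.28), PCDH7 (-0.16), SF3B2 (-0.52), SMARCA4 (-0.62), THOC5 (-0.60), TNNI2 (-0.66), UBR4 (-0.63), ZNF106 (-0.63), krt8 (-0.68) and obscnb (-0.17). All ratios shift by -1.83 there. Over all named genes and settings, 1276 recomputed values kept their call or stayed uncalled, 98 lost the call and 38 gained one. Direction was checked only for genes called in the main setting. Uncalled genes that changed side under plain totals are therefore not among the 20, and a gained call can be on the other side.

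No paired analysis was possible because each group had 1 library and the labels give no replicate numbers. The planned split by protein length was not run, since no protein table was used here. The depth of RIP-seq limits lower calls to genes with at least 69 RNA-seq counts where RIP-seq has none.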
